A study of Gossypium bickii with 18 samples.

Results

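Transcript levels were compared between cotyledons of Gossypium bickii at 48 h and at 24 h after imbibition, the water uptake that starts germination, both under light. The comparison covered every gene ID with at least 1 FPKM in at least 3 of the 6 libraries of these times, which gave 24163 members of the 43790 gene IDs in the time-course table. FPKM count fragments per length of gene relative to all mapped fragments, so they are a relative unit. The whole series held 18 libraries in 6 groups of 3: cotyledons at 0 h, for which no light condition is labelled, cotyledons at 12, 24, 36 and 48 h under light, and cotyledons at 24 h in the dark. The 3 libraries of each time are labelled biological replicates, with nothing on the plants or seed lots behind them, so p-values measure only the spread between these libraries. No genotype beyond the species is given. The deposited columns for 24 h name a time and a replicate but no light condition. They were read as the light libraries because the dark libraries have columns of their own in a second table. Across 24163 genes, the replicate deviations of these columns correlated at 0.780 to 0.803 with the same-numbered light columns of that table and at -0.101 to 0.0921 with the dark ones.

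Cotton cotyledons store oil and protein in the seed, and after germination they spend these reserves, expand and turn green in the light. Gossypium bickii, an Australian diploid cotton, is known for seeds whose cotyledons lack mature pigment glands, the cavities that hold gossypol and related terpenoids in cotton, and for forming these glands after germination. The series was set up around this gland development. No file gives names for the gene IDs, so neither markers of cotyledon tissue nor gene functions could be looked up, and genes are given by ID. Since the samples are bulk tissue, fewer cells of a type and less RNA per cell cannot be told apart.

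Between 24 h and 48 h, 8532 of the 24163 genes (35.3%) changed. At 48 h 4957 were higher (20.5% of the 24163) and 3575 lower (14.8% of the 24163). Calls needed an adjusted p under 0.05 in limma and a log2 difference of at least 1 in size on the log2(FPKM + 1) scale. Over all 26086 gene IDs tested in the time course, the called share was 33.3%, with 19.1% higher and 14.2% lower. Genes that rose did so by a median of 1.65 log2 units, from a median level of 2.63 FPKM at 24 h to 13.4 FPKM at 48 h. Those that fell had a median log2 difference of -1.57, from 21.5 to 5.47 FPKM. The median log2 difference over all 24163 genes was 0.11 as deposited and -0.06 with quantile normalization, which also turned the share of calls that were higher from 58.1% to 48.8%.

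**Figure D1:**
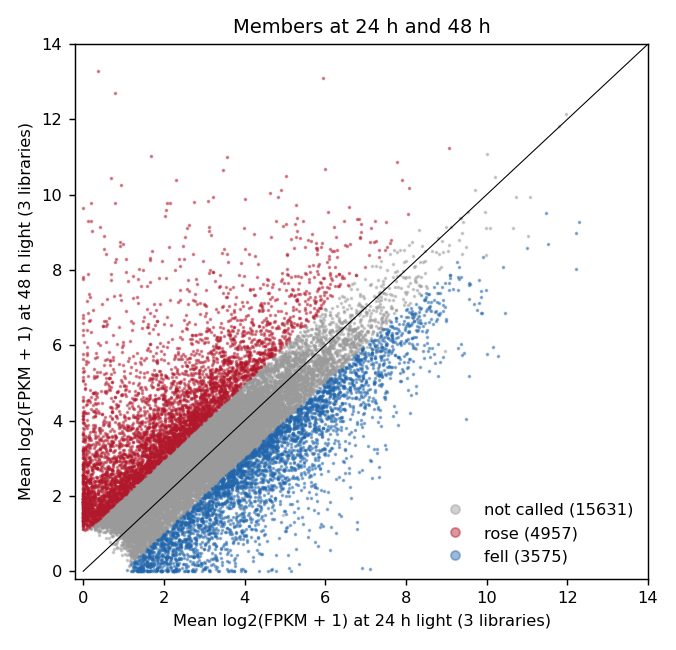
Mean log2(FPKM + 1) of each of the 24163 genes at 24 h light (horizontal axis) and 48 h light (vertical axis), each the mean of 3 libraries, with the line of equal levels. The 4957 genes that rose spread from the lowest levels upwards, and the 3575 that fell reach the highest levels at 24 h.

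Rises were larger than falls at the extremes. A log2 difference of at least 4 was reached by 312 genes that rose (6.29% of them) and by 55 that fell (1.54%). At 6 log2 units or more there were 81 and 2 genes, and at 8 or more 15 and 0. The pseudocount of 1 bounds the size of a fall by the level at 24 h and of a rise by the level at 48 h. At 1 FPKM or more in all 3 libraries of 48 h and in no library of 24 h stood 1535 genes, of which 240 averaged at least 10 FPKM at 48 h. The reverse pattern was found in 697 genes, 62 of them at a mean of at least 10 FPKM at 24 h. These 2 groups entered the comparison through 1 time only and had to differ in that direction. Of all 24163 genes, 183 were listed at 0 in all 24 h libraries and 65 in all 48 h libraries, and 19273 reached 1 FPKM in all 6.

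The threshold of the gene choice ran through very similar low values. The gene just inside had 0.223, 0.0823 and 0 FPKM at 24 h and 1.97, 1.00 and 2.53 FPKM at 48 h. The gene just outside had 1.26, 0.697 and 1.16 FPKM at 24 h and 0.999, 0.835 and 0.819 FPKM at 48 h.

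The steepest rises belonged to the IDs Gbi11G2017 and Gbi11G2016, whose numbers follow each other. Gbi11G2017 was measured at 0, 0.692 and 0.293 FPKM in the 24 h libraries and at 12397, 11121 and 7236 FPKM in the 48 h libraries. The choice of these IDs required that replicates of both times did not overlap, so the separation is no separate result. Replicate 3 was the lowest of the 48 h libraries. The log2 difference of Gbi11G2017 was 12.91 (SE 0.46, adjusted p = 8.02e-11 in limma), and it became the gene with the highest mean at 48 h. Gbi11G2016 read 0.529, 1.54 and 0.354 FPKM at 24 h, and 8645, 7404 and 4565 FPKM at 48 h, with a log2 difference of 11.90 (SE 0.55, adjusted p = 5.42e-10 in limma). It ranked 3 by mean FPKM at 48 h. Gbi11G2017 and Gbi11G2016 went from 5.96e-05% and 0.000147% of summed FPKM at 24 h to 1.84% and 1.24% at 48 h. At 36 h they were already above every 24 h value, at 6.82, 40.1 and 8.20 FPKM for Gbi11G2017 and 13.8, 103 and 14.8 FPKM for Gbi11G2016, with replicate 2 the highest for both. The ratio of Gbi11G2017 to Gbi11G2016 ran from 0.389 to 1.59 over the 6 libraries in which both reached 5 FPKM. In the light-dark table, made separately from the time course, Gbi11G2017 was listed at 0 in all dark and all light libraries at 24 h. There Gbi11G2016 stood at 0, 0.144 and 0.131 FPKM in the dark and at 0.673, 2.27 and 0.315 FPKM in light.

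The steepest falls were those of Gbi11G0296 and Gbi11G0279. Gbi11G0296 stood at 186, 160 and 84.4 FPKM in the 24 h libraries and at 0, 0.00527 and 0.118 FPKM in the 48 h libraries. All 24 h values exceeded all 48 h values, as the choice of both IDs required. Replicate 3 of 24 h was well below the other libraries of that time. The log2 difference was -7.04 (SE 0.37, adjusted p = 1.74e-09 in limma). Gbi11G0279 read 164, 140 and 73.7 FPKM at 24 h and 0.0490, 0.00722 and 0.118 FPKM at 48 h, a log2 difference of -6.83 (SE 0.38, adjusted p = 2.77e-09 in limma). Both were nearly absent at 0 h, where Gbi11G0296 was listed at 0, 0.0918 and 0 FPKM and Gbi11G0279 at 0 in all libraries, and averaged 52.0 ± 9.79 and 49.0 ± 8.82 FPKM at 12 h (SD, n = 3). At 36 h they still averaged 104 ± 56.3 and 91.2 ± 50.4 FPKM (SD, n = 3). The ratio of Gbi11G0296 to Gbi11G0279 lay between 1.05 and 1.196 in all 9 libraries in which both reached 5 FPKM. In the light-dark table the same 24 h light libraries gave Gbi11G0296 at 22.0, 34.3 and 61.4 FPKM and Gbi11G0279 at 1.45, 0 and 8.05 FPKM. In the dark at 24 h, Gbi11G0296 read 13.0, 205 and 16.0 FPKM and Gbi11G0279 read 18.6, 0 and 17.7 FPKM. Summed over the 24 h light libraries, the pair came to 350, 300 and 158 FPKM in the time course. In the light-dark table the sums were 23.5, 34.3 and 69.5 FPKM, with the order of replicates reversed. Both their separate and their joint levels are therefore uncertain, and the cause was not tested.

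Gbi10G1092 had the highest mean at 24 h, with 4338, 5140 and 5631 FPKM, and read 593, 539 and 740 FPKM at 48 h. No library of one time overlapped those of the other, and the gene ranked 56 by mean at 48 h. Its choice as the highest gene at 24 h favours a fall in level and rank. The log2 difference was -3.02 (SE 0.46, adjusted p = 6.06e-05 in limma). Its 36 h values of 1711, 1649 and 3575 FPKM lay between both times. In the light-dark table it stood at 6403, 7825 and 8115 FPKM in light and 14559, 10599 and 9058 FPKM in the dark at 24 h.

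**Figure D2:**
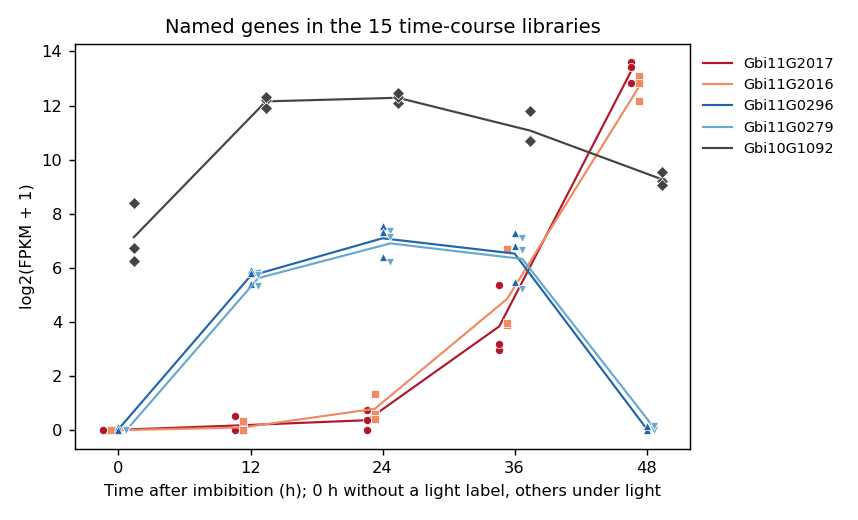
Log2(FPKM + 1) of 5 gene IDs against time after imbibition, with points for single libraries (3 per time, set slightly apart) and lines through the means. Gbi11G2017 and Gbi11G2016 are near 0 up to 24 h and highest at 48 h, Gbi11G0296 and Gbi11G0279 return to near 0 at 48 h, and Gbi10G1092 is lower at 48 h than at 24 h.

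Genes that rose took up much of the summed FPKM at 48 h. As the genes were chosen on these libraries, their shares at 24 h and 48 h are a description. Genes that rose made up 6.98%, 6.64% and 6.48% of summed FPKM in the 24 h libraries and 46.5%, 44.4% and 38.2% in the 48 h libraries. Genes that fell went the other way, from 41.7%, 42.6% and 42.3% to 9.47%, 10.3% and 12.6%. The 15631 genes that were not called held 50.6% ± 0.431 at 24 h and 45.7% ± 2.68 at 48 h (SD, n = 3). In the libraries outside the comparison, at 0, 12 and 36 h, the genes that rose held 4.79% ± 0.212, 3.61% ± 0.328 and 11.1% ± 2.42 (SD, n = 3). Those that fell held 51.4% ± 1.19, 45.2% ± 1.89 and 36.9% ± 2.57, in the same order (SD, n = 3). Of the 4957 genes that rose, 148 supplied 50% of their gain of 36.3 percentage points. The 100 largest contributors supplied 15.9 of these points and the 2 largest 3.42. For the loss of 31.4 percentage points, 232 of the 3575 genes that fell supplied 50%.

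**Figure D3:**
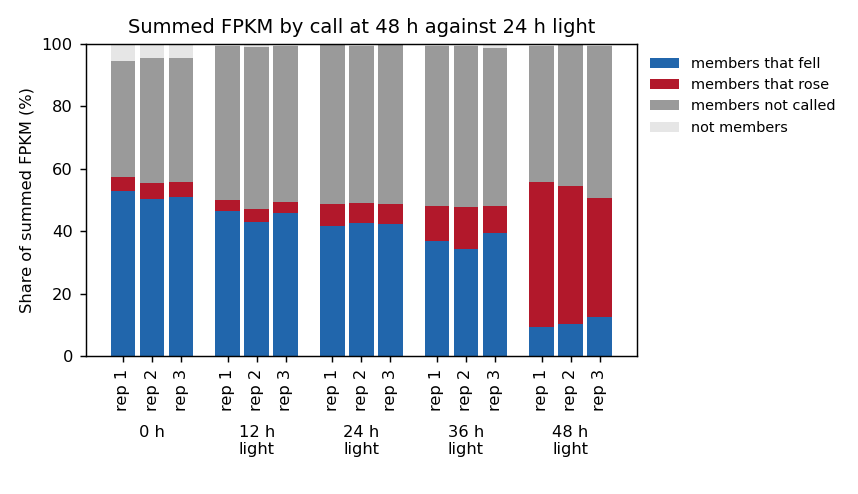
Share of summed FPKM in each of the 15 time-course libraries held by genes that fell, rose or were not called between 24 h and 48 h, and by IDs outside the gene choice. Genes that rose hold 3.35% to 13.6% in every library up to 36 h and 38.2% to 46.5% at 48 h.

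The most abundant transcripts turned over. Among the 100 genes with the highest mean at 24 h, 26 were also among the 100 highest at 48 h. Of those 100 at 24 h, 66 fell, 33 were not called and 1 rose, and their median level was 653 FPKM at 24 h and 209 FPKM at 48 h. Of the 100 highest at 48 h, 74 rose, 23 were not called and 3 fell. Their median was 50.4 FPKM at 24 h and 640 FPKM at 48 h, and 13 averaged under 1 FPKM at 24 h. Choosing genes at one of the compared times favours such a split. The 100 highest genes at 12 h, from libraries outside the comparison, held 64 that fell and 0 that rose, and 67 of them were also among the 100 highest at 24 h. Of the 100 highest at 0 h, 68 fell, 5 rose and 51 averaged under 1 FPKM at 48 h. Of the 100 highest at 36 h, 61 fell and 5 rose, and 83 were also among the 100 highest at 24 h. Only 17 of the 12 h set and 30 of the 36 h set were among the 100 highest at 48 h. Their overlap with 24 h favours falls in the 12 h and 36 h sets too, so they are no unbiased check. The 100 highest at 48 h were chosen on libraries that also define a rise, so their count cannot be set against the sets at 0, 12 and 36 h.

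The direction of change went with the level of the gene. Level was taken as the mean log2(FPKM + 1) over the 9 libraries at 0, 12 and 36 h, outside the compared times. These libraries are not neutral between both times. Of the 100 highest genes at 12 h and 36 h, 67 and 83 were also among the 100 highest at 24 h. Among the 100 highest at 48 h were only 17 and 30. A level from them therefore leans towards that at 24 h, which favours rises in low classes and falls in high ones. In the lowest class, under 1 on this scale, 53.1% of 3328 genes rose and 3.06% fell. In the highest class, at 6 or more (63 FPKM or more), 2.58% of 1046 genes rose and 57.4% fell. The classes between were ordered without exception in both directions. With the level over all 15 libraries the lowest class had 49.8% that rose and the highest 51.4% that fell. The former was 32.9% and the latter 49.3% after quantile normalization. A gene under 1 FPKM at the other times entered the comparison through 24 h or 48 h, so in the lowest class a difference was in part built in. A gene with a mean log2(FPKM + 1) under 1 at 24 h could not be called as fallen, which limits the falls at low levels.

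**Figure D4:**
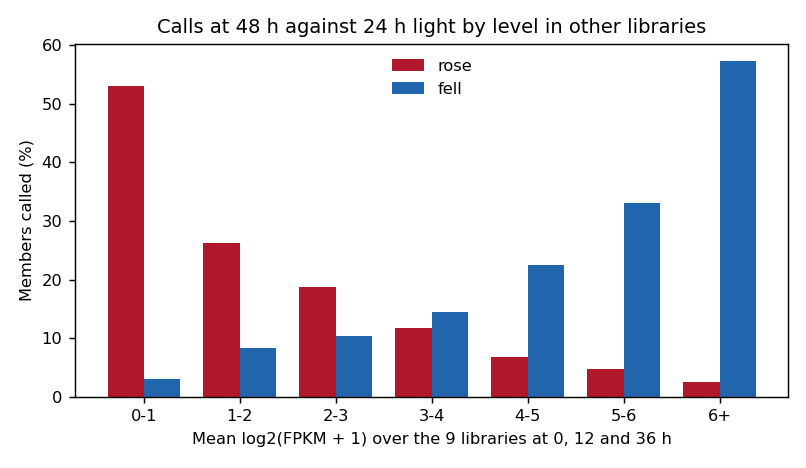
Percent of genes that rose or fell from 24 h to 48 h light, by classes of mean log2(FPKM + 1) over the 9 libraries at 0, 12 and 36 h. The share that rose drops from 53.1% to 2.58% across the classes, and the share that fell climbs from 3.06% to 57.4%.

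At 36 h most of the change was still to come. The 36 h libraries took no part in the comparison, and their position was set at 0 for the 24 h mean and 1 for the 48 h mean, per gene, on the log2(FPKM + 1) scale. Among genes that rose the median position was 0.221, with quartiles of 0.0959 and 0.350. For genes that fell it was 0.132, with quartiles of -0.00495 and 0.298. Replicates 1, 2 and 3 of 36 h gave medians of 0.223, 0.342 and 0.1003 for rises and 0.115, 0.184 and 0.0945 for falls, so replicate 2 stood nearest to 48 h and replicate 3 nearest to 24 h in both sets. A position above 0.5 was reached by 458 genes that rose (9.24%) and 305 that fell (8.53%), and one above 1 by 45 and 11. In 563 genes that rose (11.4%) and 924 that fell (25.8%) the 36 h mean did not lie on the 48 h side of the 24 h mean.

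**Figure D5:**
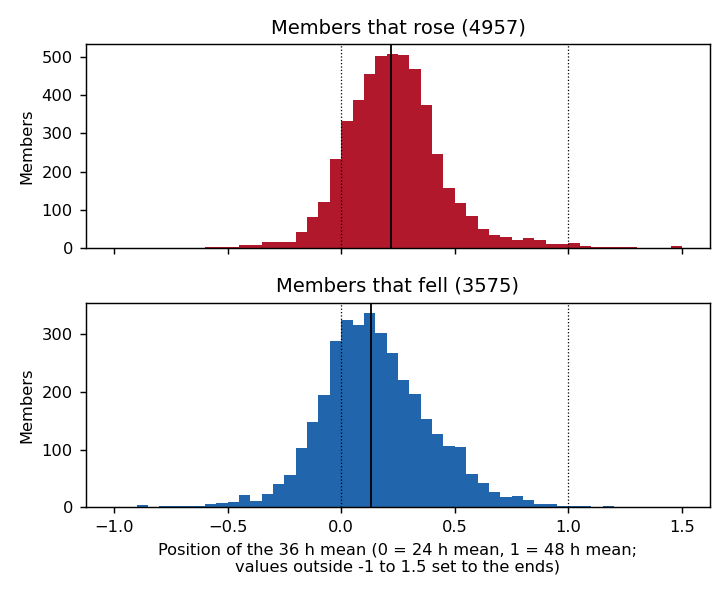
Number of genes by the position of their 36 h mean between the 24 h mean (0) and the 48 h mean (1) on the log2(FPKM + 1) scale, for 4957 genes that rose and 3575 that fell, with the median as a solid line. The medians are 0.221 and 0.132, near the 24 h end.

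The time of the highest mean is in part fixed by the calls, since a gene that rose cannot peak at 24 h nor one that fell at 48 h. Of all 24163 genes, 9638 (39.9%) had their highest mean log2 value at 48 h. Of the 4957 genes that rose, 4701 (94.8%) had their highest mean log2 value at 48 h, and a further 206 had it at 0 h. Of the 3575 that fell, 833 (23.3%) were highest at 0 h and 1162 (32.5%) at 12 h. A further 936 (26.2%) peaked at 24 h and 644 (18.0%) at 36 h. The lowest mean was at 48 h for 2203 of them (61.6%) and at 0 h for 1351 (37.8%). Of the genes that rose, 1967 (39.7%) averaged at least 1 FPKM at 0 h, against 2747 (76.8%) of those that fell and 67.4% of all 24163 genes. Among those that rose, 1253 had entered the comparison through the 48 h libraries alone, so these shares describe the sets and are not set against each other by a test. Listed at 0 in all 0 h libraries were 1217 genes that rose (24.6%) and 205 that fell (5.73%).

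The first step of germination was set beside this later one, since 12 h against 0 h shares no library with 48 h against 24 h. In the same limma fit 41.6% of tested genes were called between 0 h and 12 h, 30% higher and 11.6% lower at 12 h. The balance of these calls depended on the scaling. Among the 24163 genes, 7576 rose and 2439 fell by 12 h as deposited. The counts were 5795 and 4151 with median-of-ratios factors, and 5106 and 3686 with quantile normalization. Of the genes that fell after 24 h, 1640 of 3575 (45.9%) had risen by 12 h, against 959 of 4957 (19.3%) of those that rose after 24 h. With quantile normalization these counts were 1615 and 530, but out of other totals. Under it, 18.2% of the 24163 genes fell and 17.4% rose after 24 h, and 5106 had risen by 12 h. Read from the other side and as deposited, the 7576 genes that rose by 12 h had 21.6% falling and 12.7% rising after 24 h. The 14148 genes with no call by 12 h had 11.0% falling and 24.9% rising. The 2439 genes that fell by 12 h had 15.5% falling and 19.7% rising, near the 14.8% and 20.5% of all 24163 genes. Among genes that had risen by 12 h, falls outnumbered rises under both other scalings (22.8% and 13.0% with median-of-ratios factors, 31.6% and 10.4% with quantile normalization). These are counts of calls, with no test of their overlap, and light at 0 h is not labelled. Sharing no library does not make the calls of both steps independent, since calls depend on level. A fall after 24 h could be called only for genes well above the floor at 24 h. Of the 4957 genes that rose after 24 h, 1253 were under 1 FPKM in every 24 h library. How far level alone sets the shares that had risen by 12 h was not tested.

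Calls were also counted over IDs with consecutive numbers, as a description. Of 15358 pairs of consecutive IDs within a prefix, both among the 24163 genes, the second ID rose in 19.7% and fell in 14.7%. When the first had risen, the second rose in 28.0% (871 of 3115 pairs) and fell in 11.7%. When the first had fallen, the second fell in 21.1% (481 of 2280 pairs) and rose in 17.1%. The longest unbroken run held 8 IDs that rose and 5 that fell, and 32 and 12 runs held at least 4. Neighbouring copies of a gene can share fragments, which was not tested here. By ID prefix, from Gbi01 to Gbi13, the share that rose ran from 19.3% (Gbi12) to 22.9% (Gbi07) and the share that fell from 12.9% (Gbi06) to 16.6% (Gbi13).

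Of the 15631 genes not called, 6422 had an adjusted p under 0.05 in limma with a log2 difference under 1 in size, and 134 a log2 difference of at least 1 without passing the adjusted p. For 9580 of the 24163 genes (39.6%) the 95% interval of the log2 difference, taken gene by gene, lay within -1 and 1. Among 7552 genes at a mean of at least 10 FPKM at both times, 3586 met this.

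At 48 h 23466 ± 392 IDs stood at 1 FPKM or more and at 24 h 22372 ± 85.7 (SD, n = 3; exact permutation p = 0.1, the smallest that 3 against 3 libraries allow, adjusted 0.2 over 2 tests). Summed FPKM in the 100 highest genes came to 20.03% ± 1.61 at 48 h and 17.9% ± 0.518 at 24 h (SD, n = 3), and the groups overlapped on this measure (exact permutation p = 0.2, adjusted 0.2). Across the 24163 genes, log2 values of 24 h libraries correlated with each other at 0.966 to 0.978, those of 48 h at 0.953 to 0.975, and those of one time with the other at 0.630 to 0.702. Replicate 3 of 48 h stood somewhat apart. It correlated with the 24 h libraries at 0.688 to 0.702, against 0.630 to 0.667 for replicates 1 and 2, and its summed FPKM was 607425 against 540941 and 545986. Genes that fell lay at a median of -1.39 log2 units from the 24 h mean in replicate 3 and at -1.76 and -1.66 in replicates 1 and 2, while genes that rose lay at 1.71, 1.68 and 1.63. Without replicate 3 of 48 h, 8866 genes changed and 54.4% of them rose, against 58.1% with it. With median-of-ratios factors 58.5% of calls were higher.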

How the data were processed

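Per the labels' protocols, cotyledon RNA was prepared with a NEBNext Ultra kit and sequenced from both ends. The submitters' processing notes list HISAT2 2.0.4, HTSeq 0.6.0 and Trimmomatic 0.36. Build, annotation and strandedness are not given in the sources used. The values are FPKM as deposited by the authors, in a time-course table of 15 libraries and a light-dark table of 6. Tests and differences were made within a table only, and the tables were set side by side for the 24 h light columns and the named genes. Low values of the time course showed no steps of whole fragments, so depth is unknown and no counting interval is given. The light-dark table, which holds the same 24 h light libraries, did show such steps. Among genes at low values, ratios of 24 h light replicates 1 and 2 were sorted into narrow bins. The fullest bin held 17.5% of them there and 0.878% in the time course. Why the tables differ in this was not tested.

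Log2(FPKM + 1) of genes with 1 FPKM or more in at least 3 of the 15 libraries was fitted with limma 3.58.1 in R 4.3.3 (5 group means, variance trend, Benjamini-Hochberg adjustment over 26086 genes, two-sided). The fit was also run on simulated data with normal noise and changes planted only in genes of higher level. Such data cannot test the scaling or changes at low levels. Exact permutation tests over libraries were two-sided. The genes named were the 2 per direction that changed most in log2 terms, out of called genes with no overlap of replicates and a higher mean of at least 10 FPKM, and the highest gene at each time. Members and settings were chosen with earlier results of these data known. No gene list was used, since no table pairs IDs with names.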

Additional observations from a re-analysis of the deposited data

How the results depend on the processing

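The number of genes changed stayed within 1.5 times of 8532 under all 17 settings that kept the fold minimum, and was 14954 with no fold minimum and 2783 with a log2 difference of at least 2. Leaving out each library gave 8229 to 8866. The share of calls that were higher, 58.1% as deposited, reversed to 48.8% after quantile normalization. It was 52.8% with a filter of 5 FPKM, 56.3% after rescaling to TPM and 56.6% with no fold minimum, and it was 54.4% to 60.7% without each library. The median log2 difference over the genes, 0.11 as deposited, was -0.0022 with the filter of 5 FPKM. The cause was not tested. The 5 named genes kept their direction and call under each of the 17 settings. Genes that rose both by 12 h and after 24 h numbered 530 instead of 959 after quantile normalization, and those that fell in both steps 597 instead of 377 after median-of-ratios scaling. The lowest level class had 46.2% that rose after median-of-ratios scaling, 32.9% after quantile normalization and 53.1% with the level from the 9 libraries not compared, against 49.8%. The highest class had 57.4% that fell with that last choice, against 51.4%. These settings on level were chosen after seeing the data. Leaving out each library gave ratios of genes detected of 1.04 to 1.06 and differences in the share of the 100 highest genes of 1.65 to 3.10 percentage points, against 2.17 with all libraries. That difference was 0.678 with the 500 highest genes. The share of the change reached at 36 h ran from 0.165 to 0.282 for rises and 0.106 to 0.151 for falls without each 36 h library. No pairing by replicate number was seen: deviations of same-numbered libraries correlated at -0.198 to 0.0868. With the replicate block 8526 genes changed, 58.1% of them higher. Unknown depth limits what can be said of low values.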
